A study of Rattus norvegicus with 2 samples.

Results

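Cathepsins, legumain and cystatin C were followed as 10 genes in microglia and neighbouring cells of the fetal rat hippocampus. The members are Cst3, which encodes cystatin C, the 7 cysteine proteases Ctsb, Ctsl, Ctss, Ctsh, Ctsc, Ctsz and Lgmn, the aspartic protease Ctsd and the serine carboxypeptidase Ctsa. They were chosen by gene symbol, as 10 of the 32623 genes in the deposited feature tables. All 10 held at least 100 UMIs (unique molecular identifiers, 1 for each tagged RNA molecule), between 10316 for Ctsc and 2334322 for Cst3 over both libraries.

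The dexamethasone library held microglia of male rat embryos on gestational day 20 with prenatal exposure to dexamethasone, a synthetic glucocorticoid, and the control library held those of embryos without it. Each library was a single pool of 7 male embryos, and the rat strain and the dose, route and days of dosing are not given in the sources used here. Cells had been dissociated mechanically from the hippocampus, sorted by flow cytometry and captured in droplets. With 1 library per group no difference was tested, and exposure and library cannot be told apart.

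Cathepsins are mostly lysosomal proteases that degrade proteins taken up or turned over by the cell. Ctsb, Ctsl, Ctss, Ctsh, Ctsc and Ctsz encode papain-type cysteine proteases, and Lgmn encodes legumain, an asparaginyl endopeptidase that also processes other cathepsins. Cystatin C is a secreted inhibitor of papain-type cathepsins and of legumain, and it does not act on the aspartic protease cathepsin D or on the serine protease cathepsin A. Microglia, the resident macrophages of the brain parenchyma, are known for high levels of both Cst3 and lysosomal cathepsins.

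Depth came to 42611920 UMIs over 4328 barcodes in the dexamethasone library, against 69940778 UMIs over 8342 barcodes in the control library. After filters, 4198 dexamethasone and 8044 control cells were used, and 5 barcodes occurred in both libraries. Clusters were made without the members, and 3078 dexamethasone cells (73.3%) and 6056 control cells (75.3%) fell in 6 microglia-like clusters. Their median depth was 9175 UMIs in dexamethasone and 7972 UMIs in control cells. Of 14 microglia markers 13 had a row, and of these only Siglech was at 0, in both libraries. Border-associated-macrophage-like cells (580 dexamethasone and 940 control cells) were set apart by Mrc1, at 1186 and 1795 CPM (counts per 1000000 UMIs of the cells), against 218 CPM in dexamethasone and 192 CPM in control microglia-like cells. They also held microglia markers such as Sall1, at 85.1 CPM in dexamethasone and 89.2 CPM in control cells. Microglia-like cells held the border marker Lyve1 at 970 CPM in dexamethasone and 1051 CPM in control, against 1804 and 3625 CPM in border-like cells. F13a1, another border marker, stood at 80.2 CPM in dexamethasone and 8.84 CPM in control microglia-like cells. The boundary between both classes is thus not sharp. The microglia marker Olfml3 was at only 0.54 CPM in dexamethasone and 0.90 CPM in control microglia-like cells. Mitochondrially encoded genes gave 3.13% of UMIs in dexamethasone and 5.98% in control microglia-like cells, and summed erythroid markers stood at 194 CPM in dexamethasone and 378 CPM in control microglia-like cells. Summed neutrophil and monocyte markers stood at 289 CPM in dexamethasone and 146 CPM in control microglia-like cells. The part of these differences in the results below was not tested.

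Promoter sequences are shown for the inhibitor, for the single protease that was higher in dexamethasone microglia-like cells, and for the single member with an E-box. They are the 250 bases before the annotated start, 5′ to 3′ on the gene's strand, from RefSeq on the GRCr8 build: chr3:156793938-156794187 on the minus strand for Cst3, chr2:185775146-185775395 on the plus strand for Ctss and chr1:206968822-206969071 on the minus strand for Ctsd. Capitals mark the letters CACGTG (an E-box, its own reverse complement) and GAGGAA or, on the other strand, TTCCTC (a core of PU.1 sites).
Cst3: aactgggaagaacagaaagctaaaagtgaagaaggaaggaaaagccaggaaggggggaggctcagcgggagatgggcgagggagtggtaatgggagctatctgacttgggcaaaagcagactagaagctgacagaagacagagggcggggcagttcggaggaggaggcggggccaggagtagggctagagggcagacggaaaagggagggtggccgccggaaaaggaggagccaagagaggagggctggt
Ctss: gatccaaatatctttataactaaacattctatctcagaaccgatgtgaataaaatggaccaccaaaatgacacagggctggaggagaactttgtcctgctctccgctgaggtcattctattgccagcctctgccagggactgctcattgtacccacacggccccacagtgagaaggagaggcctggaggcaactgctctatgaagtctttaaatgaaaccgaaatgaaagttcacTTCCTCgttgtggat
Ctsd: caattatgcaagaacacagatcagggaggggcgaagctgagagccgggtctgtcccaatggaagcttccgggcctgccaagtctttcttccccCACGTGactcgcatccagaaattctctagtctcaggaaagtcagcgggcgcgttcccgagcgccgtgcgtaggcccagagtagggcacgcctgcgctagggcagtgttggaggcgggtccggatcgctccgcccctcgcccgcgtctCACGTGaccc
In the full windows, which run 250 bases before to 50 bases after the start, CACGTG was found in 6.42% of 33469 RefSeq promoters and in 1 of the 9 members with an entry. In Ctsd its first bases lay 157 and 10 bases before the start. GAGGAA or TTCCTC was found in 27.6% of promoters and in 5 of the 9 members, Ctsa, Ctsc, Ctsh, Ctss and Ctsz, and in Ctss it began 15 bases before the start. The letters ACANNNTGT, a loose core of glucocorticoid response elements that is its own reverse complement, were found in 6.86% of promoters and in 0 of 9 members. These matches describe letters in the window and do not show binding.

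Cst3 was by far the most abundant member. It ranked second of 15945 genes with a UMI in dexamethasone microglia-like cells and second of 17009 in control microglia-like cells. It reached 20769 CPM (20719 to 20819) in dexamethasone and 26267 CPM (26225 to 26310) in control microglia-like cells, or 212 and 237 UMIs per cell. Ranges in parentheses are 95% intervals that cover counting error only, exact Poisson for a level and exact conditional binomial for a ratio. For Cst3 the log2 ratio of dexamethasone over control cells was -0.34 (-0.34 to -0.33). It was the only member past a log2 difference of 0.3 downward, a size that 9.33% of the 10524 genes measured in these cells reached. Leaving mitochondrially encoded and ribosomal protein genes out of the totals gave -0.36.

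Among the papain-type proteases, Ctsl differed most between the libraries. This gene for cathepsin L, a broad lysosomal endopeptidase, had 855 CPM (845 to 866) in dexamethasone and 1050 CPM (1042 to 1059) in control microglia-like cells, a log2 ratio of -0.30 (-0.32 to -0.27) that lay just inside the 0.3 limit. Ctsh, an aminopeptidase, had 664 CPM in dexamethasone and 749 CPM in control cells, a log2 ratio of -0.17. In both genes the dexamethasone level was the lower one.

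Ctss ran the other way. Cathepsin S, known for trimming the invariant chain of MHC class II, had 839 CPM (829 to 849) in dexamethasone and 756 CPM (749 to 763) in control microglia-like cells, a log2 ratio of 0.15 (0.13 to 0.17). It was the only member higher in dexamethasone microglia-like cells, and no member was higher by 0.3, a size that 10.3% of genes reached.

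Ctsb, Ctsz and Ctsc differed little. Ctsb, which encodes the endopeptidase and dipeptidase cathepsin B, had 1230 CPM (1218 to 1242) in dexamethasone and 1260 CPM (1251 to 1269) in control microglia-like cells, a log2 ratio of -0.035 (-0.053 to -0.017). This sign was not stable, at 0.020 with the member genes in the clustering and 0.010 without the clusters led by cycling genes. Ctsz, a carboxypeptidase, had 1520 CPM in dexamethasone and 1600 CPM in control cells, a log2 ratio of -0.074. Ctsc, which activates granule serine proteases in leukocytes, was the least abundant member, with 90.9 CPM in dexamethasone and 91.0 CPM in control cells and an interval of the log2 ratio from -0.069 to 0.065.

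Lgmn was the most abundant protease in both libraries, with 2261 CPM (2244 to 2277) in dexamethasone and 2503 CPM (2490 to 2516) in control microglia-like cells, a log2 ratio of -0.15. Ctsd and Ctsa encode the proteases outside the reach of cystatin C, and their ratios lay within the range of the cysteine proteases. Ctsd, the main lysosomal aspartic protease, had 795 CPM in dexamethasone and 856 CPM in control cells, a log2 ratio of -0.11 that turned to 0.023 in cells taken by a marker gate in place of clusters. Ctsa, which also protects beta-galactosidase and neuraminidase in the lysosome, had 483 CPM in dexamethasone and 507 CPM in control cells, a log2 ratio of -0.068.

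Across the members, 9 of 10 were lower in dexamethasone microglia-like cells, and for 8 of these the interval lay below 0. The median log2 ratio was -0.091 for the members, beside 0.00029 for all 10524 genes, of which 49.95% were lower. The 7 cysteine proteases summed to 7460 CPM (7430 to 7490) in dexamethasone and 8009 CPM (7986 to 8033) in control cells, a log2 ratio of -0.10, and of -0.16 in the marker gate.

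**Figure D1:**
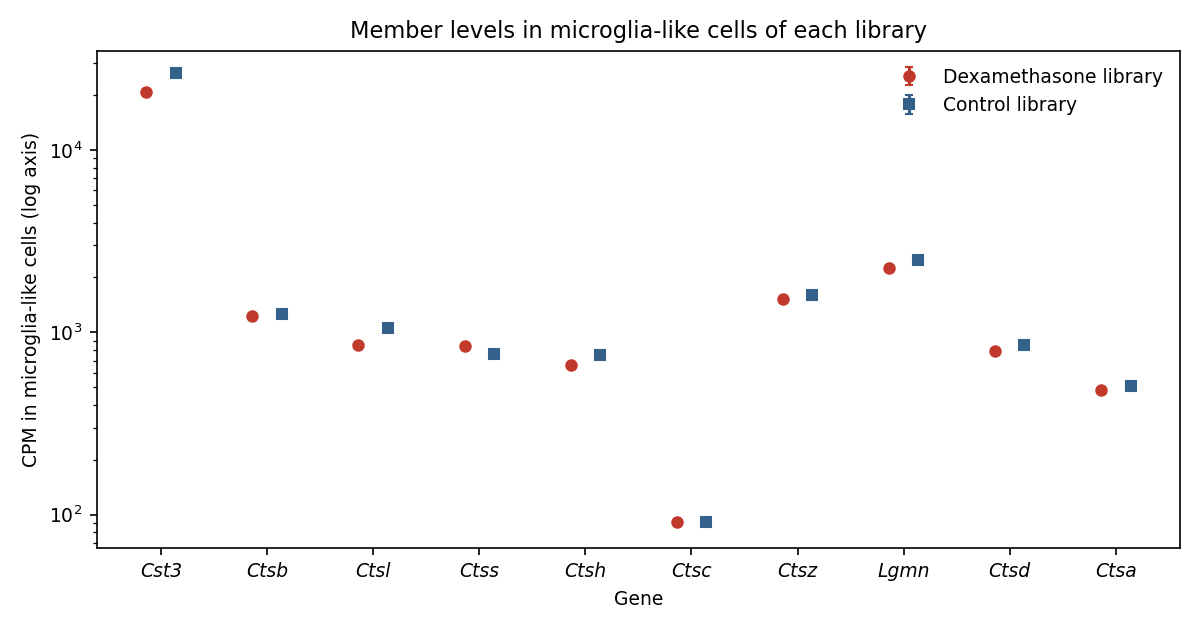
Level of each member in dexamethasone (red circles) and control (blue squares) microglia-like cells, in CPM on a log axis, with 95% counting intervals that are mostly smaller than the symbols. Cst3 stands at 20769 CPM in dexamethasone and 26267 CPM in control cells, all proteases stand at or below 2503 CPM, and Ctss is the only member with the dexamethasone symbol above the control symbol.

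Directions were compared within each of the 6 microglia-like clusters, since both libraries filled all of them. Other settings split the libraries more, as in a cluster of 1878 dexamethasone and 130 control cells with stricter cell filters, so the clusters partly follow the library. Cluster 0 (995 dexamethasone and 2158 control cells) was led by Gal3st4, F11r and Tmem119. Cluster 2 (520 and 897 cells) was led by Cd8a, Ccl7, Ccl2, Spp1 and Csf1, with 5 genes known from axon-tract-associated microglia among its top 25. Clusters 1, 4 and 7 were led by genes of replication, histones or mitosis. Cluster 5 was led by Hist1h2bq, Cdkn3 and Pttg1 but also by Gbp2, Acsl5, RT1-S3 and Il4r. It had only 1 listed mitosis gene among its top 25, which was enough to count it among the 4 clusters led by cycling genes.

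Cst3 was lower in dexamethasone cells in 6 of 6 clusters, by log2 ratios between -0.51 in cluster 5 and -0.27 in cluster 2. Ctsl was also lower in 6 of 6, between -0.44 in cluster 5 and -0.22 in cluster 2, so that both genes had their largest and smallest difference in the same clusters. Ctss was higher in 6 of 6 clusters, between 0.12 in cluster 1 and 0.25 in cluster 5. Ctsh, Ctsz, Lgmn and Ctsa were lower in 6 of 6, Ctsb and Ctsd in 5 of 6 and Ctsc in 3 of 6. The interval included 0 for Ctsa in clusters 4, 5 and 7, for Ctsz in clusters 0 and 7 and for Ctsh in cluster 7. It also did so in several clusters for Ctsb and Ctsd and in all for Ctsc, but in none for Cst3, Ctsl, Ctss and Lgmn. The share of all genes lower in 6 of 6 clusters was not computed. The clusters share the same 2 libraries and are not replicates.

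Cst3 was lower in the dexamethasone library in the other gated cells as well. Border-like cells held 10513 CPM in dexamethasone and 14101 CPM in control, neutrophil- and monocyte-like cells 2718 and 5126 CPM, and neuron-like cells 3790 and 7804 CPM. Erythroid-like cells, led by globin genes, held 1065 CPM in dexamethasone and 1671 CPM in control. The protease sum did not share this pattern in all of them. It was lower in dexamethasone in border-like cells (6884 and 7289 CPM) and in neuron-like cells (1244 and 2606 CPM). It had 3066 CPM in dexamethasone and 3019 CPM in control neutrophil- and monocyte-like cells, and 579 and 554 CPM in erythroid-like cells. In these last classes the interval of the log2 ratio included 0. Neuron-like cells also held summed microglia markers at 971 CPM in dexamethasone and 1987 CPM in control. Their summed erythroid markers stood at 6297 CPM in dexamethasone and 540 CPM in control. How much of the Cst3 and protease differences is RNA from outside the cells was not tested.

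The state of the microglia separated the members more than the library did. Cluster 2 had the highest Cst3, at 35997 CPM in dexamethasone and 43450 CPM in control cells, and the mitotic cluster 7 had the lowest, at 11756 and 15578 CPM. The fold between these clusters was 3.06 in dexamethasone and 2.79 in control cells. Within each library the Cst3 order ran from cluster 2 through clusters 0 and 1 to cluster 7, with clusters 4 and 5 between the last pair in an order that differed between the libraries. Clusters were defined on these cells, so these levels are a description with no test.

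Ctsd followed the same contrast. It had 1516 CPM in dexamethasone and 1751 CPM in control cells of cluster 2, and its lowest levels were 496 CPM in dexamethasone cells of cluster 1 and 510 CPM in control cells of cluster 7. Ctsb had 1917 CPM in dexamethasone and 1905 CPM in control cells of cluster 2, and 772 and 810 CPM in cluster 7. Ctsl had 1195 CPM in dexamethasone and 1390 CPM in control cells of cluster 2, and 459 and 613 CPM in cluster 7. In all, 7 of 10 members were highest in cluster 2 in each library, as were 14.0% of 10524 genes in dexamethasone and 14.2% in control.

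Ctss, Ctsh and Ctsc were instead highest in cluster 0, the cluster led by Tmem119 and other genes of homeostatic microglia. Ctsh had 874 CPM in dexamethasone and 1015 CPM in control cells of cluster 0, and cluster 2 was its lowest cluster, at 500.1 and 529 CPM. Ctss had 1075 CPM in dexamethasone and 974 CPM in control cells of cluster 0, and 590 and 504 CPM in cluster 7. Ctsc had 132 CPM in dexamethasone and 129 CPM in control cells of cluster 0. Ctsh thus had its lowest level in the cluster where Cst3 was highest, while the other clusters stood in much the same order for both genes.

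Ctsz and Lgmn varied least between states. Ctsz had 1785 CPM in dexamethasone and 1889 CPM in control cells of cluster 2, and the fold between its highest and lowest cluster was 1.43 in dexamethasone and 1.46 in control cells. The fold was 1.61 in dexamethasone and 1.62 in control cells for Lgmn, and 2.04 and 2.12 for Ctsa. For the summed cysteine proteases it was 1.68 in dexamethasone and 1.67 in control cells, a narrower range than that of Cst3.

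**Figure D2:**
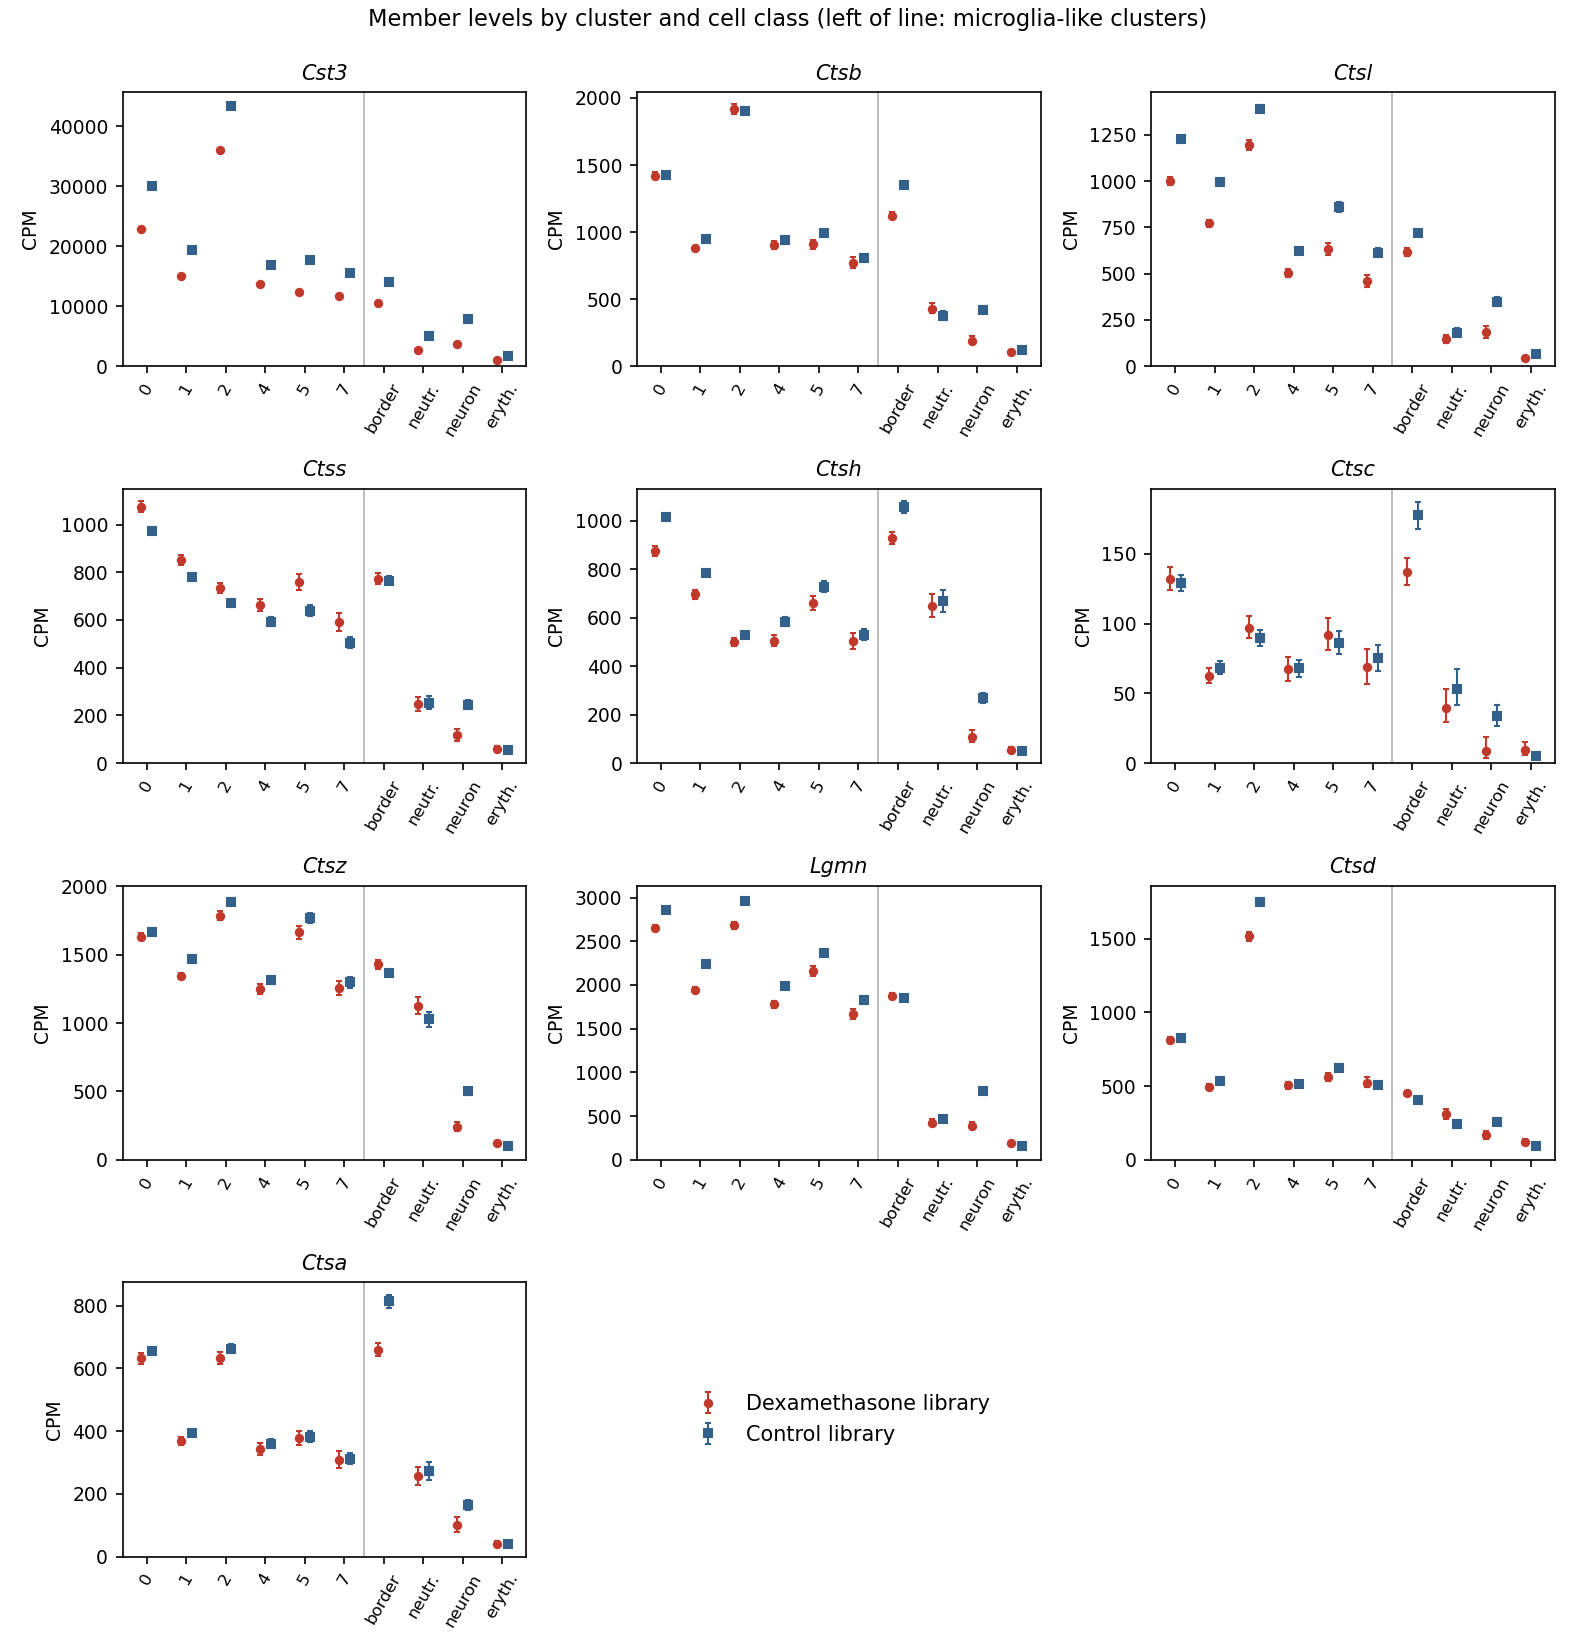
Level of each member in CPM (linear axes from 0) in the 6 microglia-like clusters, left of the grey line, and in border-, neutrophil- and monocyte-, neuron- and erythroid-like cells, with dexamethasone (red circles) left of control (blue squares) and exact 95% counting intervals. Cst3, Ctsb, Ctsl and Ctsd peak in cluster 2, while among the microglia-like clusters Ctss, Ctsh and Ctsc peak in cluster 0, and Ctsh, Ctsc and Ctsa stand higher in border-like cells than in microglia-like cells as a whole.

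Protease against inhibitor was expressed as UMIs of the 7 cysteine proteases per Cst3 UMI. UMIs count molecules and were not scaled by gene length, and the capture of each gene was not measured, so the ratio is a ratio of recovered molecules and not of proteins or of activity. In microglia-like cells it was 0.359 (0.358 to 0.361) in the dexamethasone library and 0.305 (0.304 to 0.306) in the control library. The inhibitor thus exceeded the proteases, with 2.78 Cst3 UMIs per protease UMI in dexamethasone and 3.28 in control cells. The log2 difference of the ratio between the libraries was 0.24, with a normal interval on the log scale from 0.23 to 0.24. It was 0.08 in the marker gate, which kept 595 dexamethasone and 724 control cells.

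The ratio was higher in dexamethasone cells in 6 of 6 microglia-like clusters. The 2 ends of the range were cluster 2, with 0.248 in dexamethasone and 0.217 in control cells, and cluster 5, with 0.552 and 0.420. Cluster 0 had 0.385 in dexamethasone and 0.309 in control cells, and the mitotic cluster 7 had 0.452 and 0.363. The spread between clusters of 1 library was wider than the difference between the libraries in any cluster.

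**Figure D3:**
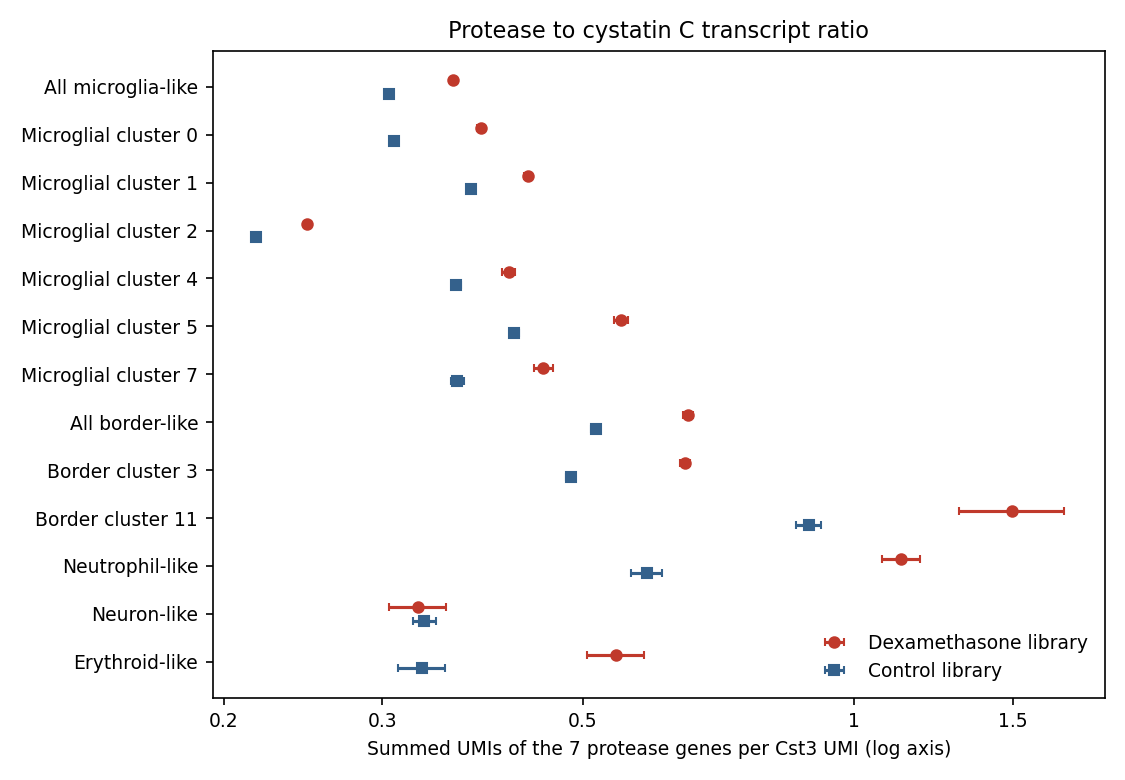
Cysteine protease UMIs per Cst3 UMI in each cell class and cluster, dexamethasone above control, with exact 95% counting intervals, on a log axis. Microglia-like cells stand at 0.359 in dexamethasone and 0.305 in control cells, border-like cells at 0.655 and 0.517, and neutrophil- and monocyte-like cells at 1.13 and 0.589.

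Single cells were compared after each was thinned to 4200 UMIs, which left 2923 dexamethasone and 5478 control microglia-like cells and left out 155 and 578 shallower ones. The median cell then held 66 Cst3 UMIs in dexamethasone and 86 in control, and 31 and 33 cysteine protease UMIs. The middle 80% of cells ran from 28 to 175.8 Cst3 UMIs in dexamethasone and from 39 to 224 in control, and from 17 to 48 protease UMIs in dexamethasone and from 20 to 51 in control. The coefficient of variation between cells was 77.5% in dexamethasone and 70.4% in control for Cst3, and 38.2% and 35.3% for the sum of the 7 proteases. Single proteases, with far fewer UMIs, lay on both sides of Cst3, from 51.8% in dexamethasone and 47.9% in control for Lgmn to 178% and 174% for Ctsc.

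The log2 of protease over Cst3 UMIs, with 1 added to each, had a median of -1.15 in dexamethasone and -1.37 in control microglia-like cells. Protease UMIs exceeded Cst3 UMIs in 7.97% of dexamethasone and 3.30% of control cells. In cluster 2 the medians were -1.88 in dexamethasone and -2.16 in control cells, and in cluster 5 they were -0.64 and -0.94. In both libraries most microglia-like cells thus held more inhibitor than protease UMIs, and the libraries overlapped widely.

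**Figure D4:**
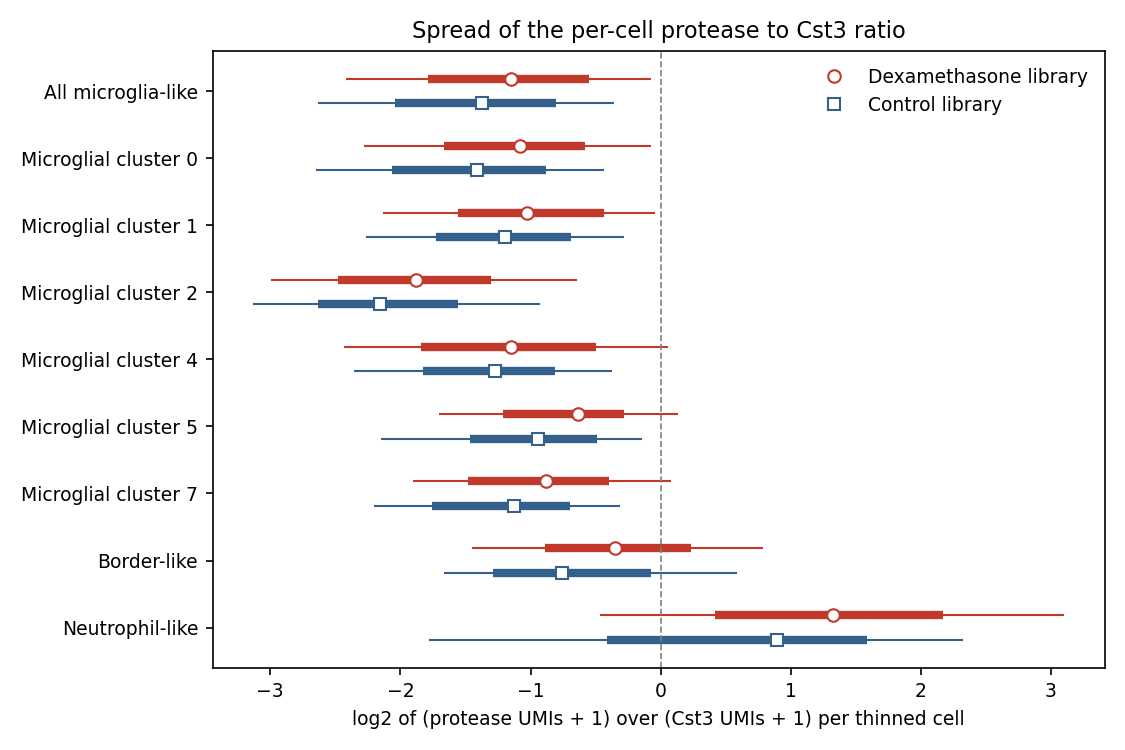
Spread over cells of log2((cysteine protease UMIs + 1) / (Cst3 UMIs + 1)) after thinning to 4200 UMIs, dexamethasone above control, with the median (symbol), the middle 50% (thick bar) and the middle 80% (thin line) of cells. Medians are -1.15 in dexamethasone and -1.37 in control microglia-like cells, -0.35 and -0.76 in border-like cells, and 1.32 and 0.89 in neutrophil- and monocyte-like cells.

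Detection was near complete for most members. Cst3 had a UMI in 100% of dexamethasone and 99.97% of control microglia-like cells before thinning. It was also found in 71.6% of dexamethasone and 98.5% of control erythroid-like cells, whose median depths were 18247.5 and 21479 UMIs. After thinning, the erythroid-like shares were 35.6% in dexamethasone and 77.7% in control cells, against 100% of microglia-like cells in each library. A Cst3 UMI alone therefore did not mark a cell type in these data.

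Ctsc was the member found in fewest cells. It had a UMI in 52.0% of dexamethasone and 49.98% of control microglia-like cells before thinning, and in 30.2% and 31.2% after it. The thinned share was 40.6% in dexamethasone and 50.4% in control border-like cells, against 1.98% and 1.54% in erythroid-like cells. Neuron-like cells, with median depths of 5546 UMIs in dexamethasone and 2250 UMIs in control, had thinned shares of 1.43% and 9.95%. Thinned shares of the other members in microglia-like cells ran upward from 79.3% for Ctsa in dexamethasone and 81.9% for Ctsa in control cells.

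The make-up of the cysteine protease UMIs was alike in both libraries. Lgmn gave 30.3% in dexamethasone and 31.2% in control microglia-like cells, Ctsz 20.4% and 20.0%, and Ctsb 16.5% and 15.7%. Ctsl gave 11.5% in dexamethasone and 13.1% in control cells, Ctss 11.2% and 9.44%, and Ctsh 8.90% and 9.35%. Ctss thus ranked below Ctsl in both libraries, with a narrower gap in dexamethasone cells. In cluster 2 Ctsb took a larger share, 21.5% in dexamethasone and 20.2% in control cells, and Ctsh a smaller one, 5.61% in each.

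Border-associated macrophages line the meninges, perivascular spaces and choroid plexus. Border-like cells had lower Cst3 and Ctsd than microglia-like cells as a whole in both libraries. Cst3 had 10513 CPM in border-like and 20769 CPM in microglia-like cells with dexamethasone, and 14101 CPM in border-like and 26267 CPM in microglia-like control cells. The log2 ratio of border-like over microglia-like cells was -0.98 in dexamethasone and -0.90 in control. Ctsd had 451 CPM in border-like and 795 CPM in microglia-like cells with dexamethasone, and 409 CPM in border-like and 856 CPM in microglia-like control cells, log2 ratios of -0.82 and -1.07. Without the small border cluster the Cst3 ratios were -0.96 in dexamethasone and -0.69 in control. Single microglia-like clusters came closer, with Cst3 at 11756 CPM in dexamethasone and 15578 CPM in control cells of cluster 7. In control the larger border cluster stood above that, at 16296 CPM. The lowest Ctsd among microglia-like clusters was 496 CPM in dexamethasone cells of cluster 1 and 510 CPM in control cells of cluster 7.

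Ctsl and Lgmn were also lower in border-like cells, with log2 ratios of -0.47 in dexamethasone and -0.54 in control for Ctsl and of -0.27 and -0.44 for Lgmn. Ctsc, Ctsh and Ctsa were higher. Ctsc had 137 CPM in border-like and 90.9 CPM in microglia-like cells with dexamethasone, and 178 CPM in border-like and 91.0 CPM in microglia-like control cells, log2 ratios of 0.59 and 0.97. The log2 ratios were 0.48 in dexamethasone and 0.50 in control for Ctsh, and 0.45 and 0.68 for Ctsa. Microglia-like cluster 0 had 132 CPM of Ctsc in dexamethasone and 129 CPM in control cells. Its Ctsh was at 874 and 1015 CPM, against 927 and 1056 CPM in border-like cells. Ctsa reached 631 CPM in dexamethasone and 663 CPM in control cells of cluster 2, against 659 and 813 CPM in border-like cells.

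Ctsz was lower in border-like cells by less, with -0.088 in dexamethasone and -0.22 in control. Ctsb had opposite signs in the libraries, with -0.13 in dexamethasone and 0.099 in control. Ctss had -0.12 in dexamethasone and 0.017 in control, where the interval (-0.023 to 0.057) included 0. Thus 8 of 10 members lay on the same side in both libraries, and the share of all genes that did so was not computed. In dexamethasone 7 of 10 members were lower in border-like cells, beside 64.8% of all genes measured. In control 5 of 10 were lower, beside 60.8%. No member was higher by log2 1, a size that 1.26% of 9475 genes reached in dexamethasone and 2.49% of 10148 genes in control. None was lower by that much in dexamethasone (4.73% of genes) and 1, Ctsd, was in control (5.49% of genes). The median over the members was -0.13 in dexamethasone and -0.10 in control, beside -0.10 and -0.082 over all genes measured.

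The size of the border contrast depended on how the cells were taken. In the marker gate the Cst3 log2 ratio was -0.37 in dexamethasone and -0.26 in control, and it was -1.45 and -1.34 when microglia-like clusters led by cycling genes were left out. For Ctsd the gate gave -0.26 in dexamethasone and -0.35 in control. The border gate held 1020 dexamethasone and 842 control cells, of which 149 and 138 were also in the microglia gate. These cells stood on both sides of the gate ratios. The direction of both genes was the same in every setting that was run.

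**Figure D5:**
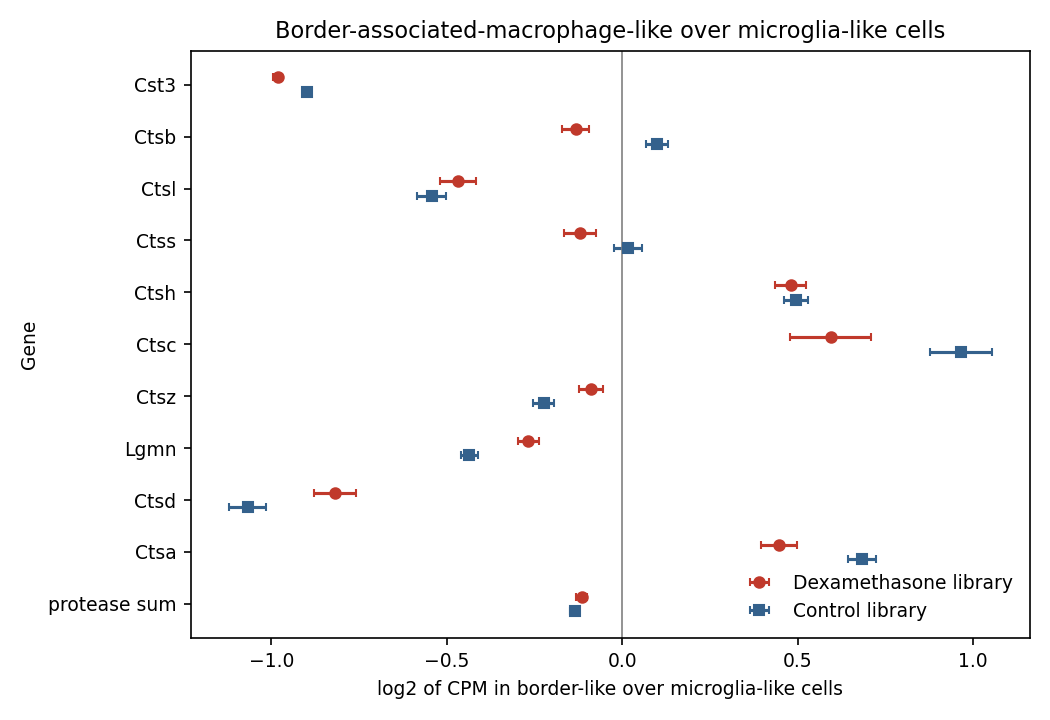
The log2 ratio of border-associated-macrophage-like over microglia-like cells for each member and for the cysteine protease sum, dexamethasone (red circles) above control (blue squares), with exact 95% counting intervals. Cst3, Ctsd, Ctsl and Lgmn lie below 0 and Ctsa, Ctsh and Ctsc above 0 in both libraries. Ctsb changes side, and Ctss lies below 0 in dexamethasone with a control interval that includes 0.

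With less Cst3 and a similar protease sum, border-like cells had a higher ratio of protease to Cst3 UMIs than microglia-like cells as a whole. It was 0.655 in dexamethasone and 0.517 in control, against 0.552 and 0.420 in microglia-like cluster 5. The size of this ratio also depended on how the cells were taken. Its lowest values over the alternatives run were 0.394 in dexamethasone and 0.342 in control border-like cells. The sum itself was 6884 CPM in border-like and 7460 CPM in microglia-like cells with dexamethasone, and 7289 CPM in border-like and 8009 CPM in microglia-like control cells. In thinned border-like cells protease UMIs exceeded Cst3 UMIs in 30.4% of dexamethasone and 21.0% of control cells.

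The 2 border clusters were not alike. Cluster 3, led by Igfbp3, Ms4a7, Stab1 and Mrc1, held 567 dexamethasone and 785 control cells and had 0.649 protease UMIs per Cst3 UMI in dexamethasone and 0.485 in control. Cluster 11, led by Ccl24, Clec10a and Cd163, held only 13 dexamethasone but 155 control cells and had 1.496 (1.31 to 1.71) in dexamethasone and 0.891 (0.864 to 0.920) in control. Its Cst3 stood at 2878 CPM in dexamethasone and 5467 CPM in control cells, and Ctsa, at 1125 and 958 CPM, was above its level in microglia-like cells.

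The border-like class itself differed between the libraries, with summed border markers at 5044 CPM in dexamethasone and 7817 CPM in control cells, and the part of this in the ratios was not tested. Between the libraries, Cst3 in border-like cells had a log2 ratio of -0.42, and -0.61 within cluster 3 alone. Ctsc at -0.37 and Ctsa at -0.30 were the other members lower by 0.3, so 3 of 10 members reached a size that 14.8% of 7474 genes reached. No member was higher by 0.3 (10.2% of genes), and 6 of 10 were lower by any amount, close to the 54.2% of all genes that were. Ctsb was at -0.27, Ctsl at -0.22 and Ctsh at -0.19. The intervals of Ctss (-0.045 to 0.070) and Lgmn (-0.016 to 0.057) included 0.

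These border values moved with the clustering. The Cst3 ratio ran from -0.92 with stricter cell filters to -0.19 with member genes in the clustering, while the border-like class took from 7.22% to 19.3% of dexamethasone cells over the same settings. Ctsz (0.062) and Ctsd (0.14) changed sign under several settings, and Ctsh and Ctsa did so under stricter cell filters.

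Neutrophil- and monocyte-like cells (91 dexamethasone and 114 control cells) kept some cathepsins while Cst3 was low. Cst3 stood at 2718 CPM in dexamethasone and 5126 CPM in control cells, log2 ratios over microglia-like cells of -2.93 and -2.36. Ctsh had 649 CPM in dexamethasone and 667 CPM in control cells, close to its microglia-like levels of 664 and 749 CPM. Ctsz had 1127 CPM in dexamethasone and 1028 CPM in control cells, and gave 36.8% and 34.0% of the cysteine protease UMIs. Lgmn, the leading protease of microglia-like cells, stood at 426 CPM in dexamethasone and 462 CPM in control cells.

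Protease UMIs outnumbered Cst3 UMIs in neutrophil- and monocyte-like cells of the dexamethasone library, with a pooled ratio of 1.13 (1.08 to 1.18). It was 0.589 (0.566 to 0.613) in those of the control library. This class itself differed between the libraries, with its summed markers at 67143 CPM in dexamethasone and 26193 CPM in control cells. The part of this in the ratios was not tested. In thinned cells protease UMIs exceeded Cst3 UMIs in 84.7% of dexamethasone and in 68.8% of control cells, and the mean of 14.7 Cst3 UMIs in control stood far above the median. The medians were 3 Cst3 UMIs in dexamethasone and 5 in control, against 11 protease UMIs in each. Erythroid-like cells had a ratio of 0.544 in dexamethasone and 0.331 in control, and neuron-like cells had 0.328 and 0.334, close to the microglia-like ratio although their Cst3 level was far lower.

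Levels of the members were compared over 23 profiles, each a cluster in 1 library with at least 50 cells. The profiles share libraries and depth, and many differ as macrophages from other cells, so the correlations are a description. Over the 12 microglia-like profiles Cst3 had a Pearson correlation of 0.95 with Ctsb, 0.92 with Ctsd and 0.92 with Ctsl on log2(CPM + 1) levels, but of 0.33 with Ctss and 0.14 with Ctsh. Between single cells of 1 cluster the correlations were weak, with medians over clusters of 0.28 in dexamethasone and 0.28 in control for Cst3 and the protease sum.

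The genes most similar to each member over the 23 profiles, among 4552 genes, were often lysosomal or macrophage genes. For Cst3 they were Havcr2, Ctsl and Arsb, for Ctsb they were Dnase2, Apoe and Grn, and for Ctsl they included Trem2 and Naglu. For Lgmn they included Dpp7 and Timp2, for Ctsd Atp1b1, Arsb and Cd63, and for Ctsa Tpp1, Tns3 and Tcn2. For Ctss they were Man1c1, Lamp2 and Tmem176a, for Ctsh Arhgap45, Nfam1 and Tbxas1, for Ctsc Ctsa, Cyp4f6 and Pla2g15, and for Ctsz Laptm5, Tgfb1 and Lyn. Lgmn aside, the leading correlation ran from 0.96 for Cst3 and Ctsd to 0.99 for Ctsb, Ctss, Ctsh and Ctsz.

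Other protease inhibitors were compared next. Cstb, the intracellular inhibitor cystatin B, was the 1 of 22 other listed cystatin genes with at least 100 UMIs in microglia-like cells, and it had 632 CPM in dexamethasone and 598 CPM in control, a log2 ratio of 0.079. Of 27 other protease inhibitors 14 were measured, 9 of them lower and 5 higher in dexamethasone. Of all genes 49.95% were lower. The median log2 ratio of the 14 was -0.083 beside 0.00029 over all genes. By at least 0.3, 2 were lower and 1 was higher, near the 9.33% and 10.3% of all genes that were. Timp2, an inhibitor of metalloproteinases, had 1028 CPM in dexamethasone and 1133 CPM in control, a log2 ratio of -0.14. Spint2, an inhibitor of serine proteases, had 296 CPM in dexamethasone and 225 CPM in control, a log2 ratio of 0.40. The other genes past the limit, Serping1 at -0.51 and Lxn at -0.44, stayed below 10 CPM in both libraries.

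Of 15 other listed cathepsins and relatives 3 were measured. Ctsf had 143 CPM in dexamethasone and 149 CPM in control microglia-like cells. Ctse had 14.8 CPM in dexamethasone and 16.0 CPM in control cells. Ctsk, cathepsin K of osteoclasts, had 8.50 CPM in dexamethasone and 4.51 CPM in control cells, a log2 ratio of 0.91 at a low level.

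Lysosomal genes leaned the same way as the proteases, by little. Of 54 listed genes 51 were measured, 35 of them lower and 16 higher in dexamethasone microglia-like cells. Of all genes 49.95% were lower. The median log2 ratio of the 51 was -0.069 beside 0.00029 over all genes. By 0.3, 3 were lower, against 9.33% of all genes, and 0 were higher, against 10.3%. Cd63 had 1598 CPM in dexamethasone and 1708 CPM in control cells, and the proton pump subunit Atp6v0c had 1532 and 1607 CPM. The lysosomal thioesterase gene Ppt1 had 124 CPM in dexamethasone and 158 CPM in control cells, a log2 ratio of -0.35. Gla, which encodes alpha-galactosidase, had 2.80 CPM in dexamethasone and 4.53 CPM in control cells, a log2 ratio of -0.69 at a low level.

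Of 24 listed regulators of lysosomal genes 22 were measured, 6 of them lower and 16 higher, with a median log2 ratio of 0.053. Over all genes the median was 0.00029, and 50.05% were higher. Lamtor2, a subunit of the Ragulator complex on lysosomes, had 308 CPM in dexamethasone and 301 CPM in control microglia-like cells. Spi1, which encodes PU.1, had 240.5 CPM in dexamethasone and 282 CPM in control microglia-like cells, a log2 ratio of -0.23. Bhlhe41 had 20.5 CPM in dexamethasone and 13.3 CPM in control cells, a log2 ratio of 0.62. It was the only one of these past 0.3, a size that 10.3% of all genes reached upward and 9.33% downward. Mitf, a relative of the lysosomal regulator Tfeb, had 24.7 CPM in dexamethasone and 20.5 CPM in control cells, a log2 ratio of 0.27.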

How the data were processed

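The deposited files hold raw UMI counts per gene and barcode as the authors made them, with Cell Ranger 7.0.0 and the Rnor_6.0 assembly per the submitters' processing notes. Both libraries were read whole. Members were matched by symbol, and all 10 matched RefSeq, whose promoters are of GRCr8, not of the build used for counting. The members and gene lists were chosen with earlier results of these data known.

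Cells needed 200 or more genes and no more than 20% mitochondrial UMIs. Scrublet in scanpy 1.11.5 marked 1 of 4199 dexamethasone and 0 of 8044 control cells, so it has not worked and doublets remain. Both libraries were clustered together without integration, from 2000 variable genes, 30 principal components and 15 neighbours, by Leiden at resolution 0.5, with members and listed genes left out. The naming rule was set after seeing the clusters. Another class needed at least 2 of its markers, and more than of microglia, among the top 25 genes by fold. These top genes needed at least 50 CPM in the cluster and a UMI in at least 25% of its cells. Microglia-like clusters needed 7 markers at 0.6 of their median level.

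UMIs were summed per class or cluster and library and divided by all UMIs of those cells (CPM). Genes with at least 100 UMIs in both libraries together were measured. No test was made with 1 library per group. Intervals at 95% are exact Poisson, conditional binomial or Clopper-Pearson, and normal on the log scale for a difference of ratios, and cover counting error only, since embryos, dissection, sorting and capture were not replicated. Steps were tested on simulated data. The 10 members are named, with the 3 genes of highest Pearson correlation to each over profiles and, per wider list, the 2 of highest level and the 2 of largest ratio, and 1 gene that this rule names is not reported here. Alternatives changed the cell filter, doublet removal, clustering, cell gate, scaling, depth and the make-up of the sum.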

Additional observations from a re-analysis of the deposited data

Results flagged for a closer look

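Ctsz and Ctsd stood out because their direction between the libraries differed between cell classes. The log2 ratio of dexamethasone over control for Ctsz was 0.062 in border-like cells and -0.074 in microglia-like cells. For Ctsd it was 0.14 in border-like cells and -0.11 in microglia-like cells. With 1 library per group the difference between the classes was not tested. The border-like values changed sign under several other ways of taking the cells, 5 settings for Ctsz and 3 for Ctsd, and within the larger border cluster alone Ctsz was at -0.054 and Ctsd at 0.082.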

How the results depend on the processing

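The lower Cst3 level, the lower protease sum and the higher protease to Cst3 ratio in dexamethasone microglia-like cells kept their direction in all alternatives run, 11 for Cst3 and 12 for the ratio's difference, as did the lower Cst3 in border-like cells. Sizes moved, and several border-like directions turned. With stricter limits per cell (500 genes or more, 10% mitochondrial UMIs or less) the microglia-like log2 ratio of Cst3 was -0.37, that of the protease sum -0.094, protease per Cst3 UMI 0.375 in dexamethasone and 0.310 in control and its log2 difference 0.27. The border-like log2 ratio of Cst3 was -0.92, that of Ctsh 0.0016, that of Ctsz -0.093 and that of Ctsd -0.34. That of Ctsa was 0.033, the border over microglia log2 ratio of Cst3 -1.09 in dexamethasone and -0.53 in control, that of Ctsb 0.072 in dexamethasone and that of the protease sum -0.093 in dexamethasone and -0.053 in control. Leaving out the Scrublet step put back only 1 dexamethasone cell and 0 control cells, but the clustering was run again. Border-like cells then numbered 683 in dexamethasone and 1281 in control, against 580 and 940. Without Scrublet removal the microglia-like log2 ratio of Cst3 was -0.34, protease per Cst3 UMI 0.355 in dexamethasone and 0.299 in control. Its log2 difference was 0.25 and the border-like log2 ratio of Cst3 -0.49. That of Ctsz was -0.025, that of Ctsd -0.0027, the border over microglia log2 ratio of Cst3 -0.84 in control and that of the protease sum -0.15 in dexamethasone. At Leiden resolution 1.0 the microglia-like log2 ratio of Cst3 was -0.36, protease per Cst3 UMI 0.365 in dexamethasone and 0.303 in control, its log2 difference 0.27 and the border-like log2 ratio of Cst3 -0.57. That of Ctsz was -0.038, that of Ctsd -0.16, the border over microglia log2 ratio of Cst3 -0.77 in control and that of the protease sum -0.082 in control. With member and listed genes in the clustering the microglia-like log2 ratio of Cst3 was -0.28, that of Ctsb 0.020, that of the protease sum -0.082 and protease per Cst3 UMI 0.354 in dexamethasone and 0.308 in control. Its log2 difference was 0.20, the border-like log2 ratio of Cst3 -0.19, the border over microglia log2 ratio of Cst3 -0.87 in dexamethasone and -0.97 in control and that of the protease sum -0.14 in dexamethasone and -0.16 in control. The Cst3 fold between the highest and lowest microglia-like cluster was 2.71 in dexamethasone and 2.46 in control. In the marker gate the microglia-like log2 ratio of Cst3 was -0.24, that of Ctsd 0.023, that of the protease sum -0.16 and protease per Cst3 UMI 0.312 in dexamethasone and 0.295 in control. Its log2 difference was 0.081, the border-like log2 ratio of Cst3 -0.35, that of Ctsz -0.033 and the border over microglia log2 ratio of Cst3 -0.37 in dexamethasone and -0.26 in control. That of Ctsb was 0.26 in dexamethasone and that of the protease sum -0.029 in dexamethasone and -0.046 in control. Without microglia-like clusters led by cycling genes the microglia-like log2 ratio of Cst3 was -0.32, that of Ctsb 0.010, that of the protease sum -0.082 and protease per Cst3 UMI 0.308 in dexamethasone and 0.262 in control. The border over microglia log2 ratio of Cst3 was -1.45 in dexamethasone and -1.34 in control, that of Ctsb -0.27 in control and that of the protease sum -0.36 in dexamethasone and -0.36 in control. With CPM that leave out mitochondrially encoded and ribosomal protein genes the microglia-like log2 ratio of Cst3 was -0.36 and that of the protease sum -0.12. As means of CPM per cell the microglia-like log2 ratio of Cst3 was -0.32, protease per Cst3 UMI 0.364 in dexamethasone and 0.313 in control, its log2 difference 0.22 and the border over microglia log2 ratio of Cst3 -0.97 in dexamethasone and -0.86 in control. That of the protease sum was -0.11 in control. Without the deepest 5% of cells the microglia-like log2 ratio of the protease sum was -0.11, protease per Cst3 UMI 0.306 in control, its log2 difference 0.23 and the border over microglia log2 ratio of Cst3 -0.999 in dexamethasone and -0.91 in control. In thinned cells the microglia-like log2 ratio of the protease sum was -0.11, protease per Cst3 UMI 0.364 in dexamethasone and 0.310 in control, the border over microglia log2 ratio of Cst3 -0.96 in dexamethasone and -0.88 in control and that of the protease sum -0.092 in dexamethasone. With Ctsd and Ctsa in the sum protease per Cst3 UMI was 0.421 in dexamethasone and 0.357 in control. With median-of-ratios scaling the border-like log2 ratio of Cst3 was -0.41. Without the small border cluster the border-like log2 ratio of Cst3 was -0.61, that of Ctsz -0.054, the border over microglia log2 ratio of Cst3 -0.96 in dexamethasone and -0.69 in control and that of the protease sum -0.019 in control. The cause of these changes was not tested. Of 465 further alternative values, mostly of single members, 230 stayed within the counting interval of the reported value, 219 moved outside it, and 16 changed sign where that interval had lain on 1 side of 0, as given above. The border gate, leaving out the small border cluster and the alternatives for border-like ratios between libraries were chosen after seeing the data. No paired analysis was possible because each group has 1 library, and no replicate could be left out. Depth limits Ctsc, the 13 dexamethasone cells of cluster 11, the 6 dexamethasone choroid-plexus-like cells and the shallow classes, where thinning left out 319 of 520 control neuron-like and 167 of 243 control unnamed cells. Doublets remain.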

Other observations

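Some cells outside the named classes also carried Cst3. The 218 dexamethasone and 243 control cells left unnamed, most of them in a cluster led by Mt1, Serpinb1a and Ftl1 with few microglia markers, held 17034 CPM of Cst3 in dexamethasone and 20064 CPM in control. Their cysteine protease sum was 3882 CPM in dexamethasone and 4080 CPM in control, so that protease per Cst3 UMI was 0.228 and 0.203, below the ratio of microglia-like cells in each library. Their median depths were 5154.5 UMIs in dexamethasone and 1901 UMIs in control. The choroid-plexus-like cells, 6 in dexamethasone and 40 in control, held 4944 and 8182 CPM of Cst3, and their protease per Cst3 UMI was 0.569 in dexamethasone (0.422 to 0.763) and 0.289 in control (0.258 to 0.323).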
